A study of Mus musculus with 18 samples.

Results

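Left ventricles of mice that had just given birth were compared directly with left ventricles of mice that had run on a wheel for 7 days, with no sedentary array in the contrast. The members are the 3 arrays titled 0PP (immediate postpartum) and the 3 titled 7EX (voluntary wheel running), 6 of the 18 arrays of the series. All 6 came from wild type C57Bl/6 females aged 3 to 4 months. 0PP mice were taken within hours of parturition, and 7EX mice had a running wheel for 7 days and were not bred. Neither the hour of collection nor the estrous cycle stage of the runners is given in the sources used here. Each array carried RNA pooled in equal amounts from 2 to 3 hearts, so the replicate was the pool, and p-values measured the spread between pools. The other arrays, 3 each, were of sedentary virgins in diestrus (NP/Sed), 21 days of running (21EX), mid-pregnancy (MP) and late pregnancy (LP). They helped to set the spread of each gene and are shown for position. The tissue label was checked against markers: the 12 cardiomyocyte markers averaged 13.82 to 13.85 (log2 level) per array in 0PP and 13.86 to 13.88 in 7EX, and those of skeletal muscle 4.57 to 4.65 and 4.62 to 4.67.

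Both states enlarge the heart without disease, but under different loads. Pregnancy imposes a lasting volume load together with placental and ovarian hormones, and birth ends both abruptly. Running loads the heart in bouts, mostly at night, and is known for raising vagal tone and fatty acid use. Most cardiomyocytes of an adult mouse do not divide, so transcripts of mitosis in whole ventricle largely come from a small share of cells, many of them not muscle.

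Of 18193 genes tested, 18 were called higher in 0PP than in 7EX (0.0989% of genes) and 15 lower (0.0824%), at an adjusted p under 0.05 in limma and a change of at least 75%. Without the fold limit 70 genes were higher (0.385%) and 67 lower (0.368%), but only 17 to 41 and 13 to 45 with 1 array left out. The called genes fell mainly into 2 groups. Of the 18 rises 6 were genes of the circadian clock or its outputs, and Arntl, the clock's central activator, showed the largest fall. Of the 15 falls 11 were genes of mitosis. Over all genes the median difference was -0.01 on the log2 scale, which quantile normalization holds near 0. Mean absolute distances between 0PP and 7EX arrays over all probe sets (0.164 on average) were little above those within 0PP (0.147) and within 7EX (0.143). In bulk tissue, fewer cells of a type and less RNA per cell cannot be told apart.

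A control signal of RNA integrity or labeling moved with the groups. The 3′ minus 5′ signal of the beta-actin control probe sets, which grows as RNA is shortened, was 1.32, 1.28 and 1.28 in 0PP and 1.09, 1.08 and 1.05 in 7EX on the log2 scale. The groups did not overlap, and 0.1 is the smallest p that an exact two-sided permutation of 3 against 3 arrays can give. The same signal of Gapdh was -0.01, 0.05 and 0.03 in 0PP and -0.07, -0.05 and -0.03 in 7EX. It did not overlap either, but differed by 0.07, against 0.22 for beta-actin. In NP/Sed the beta-actin signal ran from 1.11 to 1.36, and in MP from 1.32 to 1.35. With the beta-actin signal as a covariate in limma 0 genes passed, against 137 in all without it, and 1370 genes rather than 2490 had an unadjusted p under 0.05. All 137 kept their direction. As the signal separated the 2 groups, that fit was less precise. Estimates moved both ways: Cdk1 went from -1.21 to -0.79 and Nmrk2 from 1.35 to 1.45. The unadjusted p of Nmrk2 in limma still rose from 1.98e-07 to 7.93e-05. The loss of calls thus does not measure the part of RNA integrity or labeling in the differences, which was not tested beyond that fit.

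Regulatory sequence upstream of the genes that carried these differences is shown first, from the RefSeq promoter table (build GRCm38.p6). Many genes of late cell cycle hold a cell cycle genes homology region (CHR, TTTGAA) together with CCAAT boxes, and repressor and activator complexes that switch these genes with the cycle act there. The stretches shown are those of 4 called mitosis genes with a CHR before the start of transcription. Capitals mark the CHR, or its reverse complement TTCAAA, and the CCAAT box, or ATTGG on the other strand.
Cdk1: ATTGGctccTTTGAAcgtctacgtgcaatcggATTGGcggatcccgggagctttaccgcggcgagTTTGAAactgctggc
Ube2c: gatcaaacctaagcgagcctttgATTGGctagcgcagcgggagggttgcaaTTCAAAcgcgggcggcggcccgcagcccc
Top2a: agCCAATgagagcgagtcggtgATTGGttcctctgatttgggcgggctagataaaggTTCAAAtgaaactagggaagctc
Mki67: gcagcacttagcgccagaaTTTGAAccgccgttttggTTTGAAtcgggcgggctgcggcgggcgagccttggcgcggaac
They lie at chr10:69352913-69352992 (minus strand), chr2:164769849-164769928 (plus), chr11:99024190-99024269 (minus) and chr7:135716435-135716514 (minus). The first 3 end at the base before the start of transcription, and that of Mki67 56 bases before it. Of the 49 mitosis genes with a window, from 250 bases before to 50 after the start, 37 held a CHR on either strand (75.5%), against 20.2% of all 27025 genes with one and 15.7% of the genes tested here. A CCAAT box was in 34 of the 49 (69.4%, against 41.1% of all genes), and a TATA box (TATAAA) in 1 (2.04%, against 15.7%). Motifs were counted separately, so 1 stretch may serve more than 1 count. The 21 members that passed and had a window held a CHR in 16 cases (76.2%), much the same share as in the whole list. Of 31 DNA replication genes, 5 held a CHR (16.1%).

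Clock genes are switched through E-boxes (CACGTG), which the Arntl protein binds with its partner, and D-boxes (TTATGTAA or TTACGTAA), which the proteins of Dbp and Tef bind. The stretches of Tef and Per3 are shown with the E-box of Tef and the D-box of Per3 in capitals.
Tef: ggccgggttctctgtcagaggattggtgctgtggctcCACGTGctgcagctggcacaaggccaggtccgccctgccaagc
Per3: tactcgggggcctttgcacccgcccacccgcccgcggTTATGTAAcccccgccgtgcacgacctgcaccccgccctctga
They lie at chr15:81802509-81802588 (plus strand) and chr4:151044781-151044860 (minus). An E-box was found in 3 of 11 core clock genes (27.3%) and 4 of 9 clock output genes (44.4%), against 8.09% of all genes and 10.2% of the genes tested here. Of the members that passed, 0 of 4 core clock genes and 2 of 4 output genes with a window held one. A D-box was found in 1 of the 11 and 0 of the 9, against 1.23% of all genes. Such matches describe letters in a short window only.

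The clock runs as a loop: Arntl and its partners switch on the period and cryptochrome genes and Nr1d2, whose products then silence the activators. Dbp, Tef and Hlf carry the rhythm to output genes. Of 12 core clock genes measured, 3 were higher in 0PP at an adjusted p under 0.05 and 1 was lower, with a median of 0.43 on the log2 scale against -0.01 over all genes. Of 11 output genes 5 were higher and 0 lower, with a median of 0.56. All 3 arrays of 0PP lay above all 3 of 7EX for 7 core and 8 output genes, where 11.2% of all genes did so.

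Dbp, an output activator with one of the widest daily swings known in any tissue, showed the largest rise of all genes. Its level was 10.27, 10.26 and 9.28 (log2) in 0PP and 7.33, 7.23 and 8.27 in 7EX. The groups did not overlap, but the third array of each lay about 1 log2 unit nearer to the other group. The difference was 2.33 ± 0.51 (SE), a 5.01-fold change, with an adjusted p of 0.0489. A further probe set of Dbp gave 2.15 with an adjusted p of 0.0502, and Dbp was not called without any 1 of the 6 arrays. Clock genes swing with the time of day, so differences between 0PP and 7EX in this group of genes cannot be told apart from differences in the hour of collection, which is not given in the sources used here.

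Per3, a period gene of the repressing arm, had levels of 7.09, 7.16 and 6.49 in 0PP and 5.32, 5.22 and 5.80 in 7EX. The third arrays were again nearest to each other, with no overlap. Per3 was higher by 1.47 ± 0.29 (adjusted p = 0.0263), although only 1 of its 5 other probe sets passed. Nr1d2, a nuclear receptor that represses Arntl, stood at 10.94, 10.81 and 10.43 against 9.67, 9.48 and 9.90, a rise of 1.04 ± 0.18 (adjusted p = 0.0127). Its other probe set, dimmer, gave 0.58 and did not pass. The cryptochrome Cry2 was at 7.36, 7.44 and 7.38 against 6.78, 6.75 and 6.83. It was higher by 0.61 ± 0.12 (adjusted p = 0.0235), and its arrays were tight within each group.

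Arntl opposed them. It measured 6.23, 6.42 and 7.32 in 0PP and 7.93, 8.33 and 8.02 in 7EX, a difference of -1.44 ± 0.28 (2.71-fold lower, adjusted p = 0.0260). The groups were separate, with the third 0PP array highest of its group. The other probe set of Arntl, dimmer, gave -0.20 and did not pass. Npas2, Per1, Hlf, Hspa5, Egr1, Fos and Ddit4, described here and further on, were chosen after their values were seen. Npas2, which encodes an alternative partner in the activator complex, gave -1.02 ± 0.26 with an adjusted p of 0.0881, and Per1 0.75 ± 0.19 with 0.0909, so neither passed. The groups did not overlap in either.

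Among outputs, Usp2, a deubiquitinase, was at 10.79, 10.79 and 10.46 in 0PP and 9.58, 9.75 and 9.74 in 7EX. It rose by 0.99 ± 0.14 (adjusted p = 0.00428) and was called whichever 1 array was left out. Tef, a relative of Dbp, was at 8.89, 8.83 and 8.67 against 7.87, 7.94 and 7.98, a rise of 0.86 ± 0.16 (adjusted p = 0.0184). Groups were apart in both genes, but the other probe sets of Tef gave 0.94 and 0.35 and did not pass. Tspan4, a membrane tetraspanin, rose by 0.93 ± 0.20 (adjusted p = 0.0481), and Wee1, a kinase that restrains entry into mitosis, by 0.42 ± 0.09 (0.0397). Hlf gave 0.88 ± 0.20 and just missed (adjusted p = 0.0502).

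**Figure D1:**
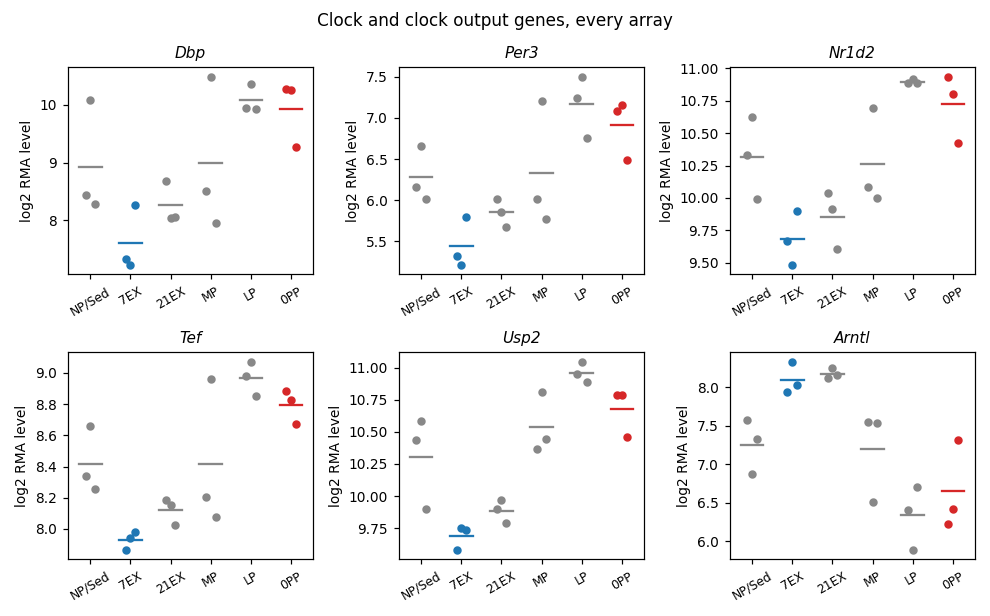
Log2 RMA level (vertical axes) of 6 clock genes in every array of the 6 groups; points are arrays in the order 1 to 3 and bars are group means, with 7EX in blue, 0PP in red and the other groups in grey. The 0PP and 7EX points do not overlap in any panel, and single NP/Sed and MP arrays of Dbp reach the 0PP range.

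The other groups place these values. NP/Sed Dbp averaged 8.93 ± 1.0 (SD, n = 3 arrays) and MP 8.98 ± 1.33, so arrays of those groups spread over much of the gap between 7EX and 0PP. LP was at 10.08 ± 0.25, close to 0PP, and 21EX at 8.26 ± 0.36. Set against NP/Sed, Dbp differed by 1.01 in 0PP and by -1.32 in 7EX, and neither passed (adjusted p = 0.319 and 0.257). The same held for Per3 (0.64 and -0.84), Nr1d2 (0.41 and -0.63), Tef (0.38 and -0.49) and Arntl (-0.60 and 0.84): each group stood on its own side of NP/Sed without passing, and only the direct contrast passed. The 2 differences from NP/Sed share its arrays, and these genes were picked for their gap between 0PP and 7EX.

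The core clock count was 0 to 2 higher and 0 to 1 lower with 1 array left out in turn, and the output count 1 to 3 higher. Their medians stayed at 0.33 to 0.53 and 0.44 to 0.71. With the beta-actin covariate the medians were 0.20 and 0.31, and Dbp stood at 1.51.

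Mitosis genes formed the largest group of falls. The list covers cyclins and their kinase, the spindle, the kinetochore, chromosome condensation and cytokinesis. Of 59 measured members 23 were lower in 0PP than in 7EX at an adjusted p under 0.05 and 0 higher, with a median of -0.42 against -0.01 over all genes. In 44 of them all 0PP arrays lay below all 7EX arrays, where 10.5% of all genes did so. The study's text or supplements name 16 of these genes, some of them for their change under running on these same arrays, and 12 of the 16 passed. Of the 43 others 11 passed, with a median of -0.31. Signal was low: 23 of the 59 members had a mean log2 level of at least 5 (log2), and the others were dimmer.

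Cdk1, the kinase that starts mitosis, was at 5.52, 5.69 and 5.79 in 0PP and 6.54, 6.96 and 7.13 in 7EX. All 3 postpartum pools were well below all running pools. The difference was -1.21 ± 0.14, or 2.31-fold lower, with an adjusted p of 0.000671. Its activating cyclins moved with it. Ccna2 read 4.90, 5.34 and 4.96 against 5.93, 6.46 and 6.23 (-1.14 ± 0.17, adjusted p = 0.00428). Ccnb2 read 4.76, 5.22 and 5.12 against 5.93, 6.13 and 6.25 (-1.07 ± 0.16, adjusted p = 0.00428). Neither cyclin's groups overlapped, and all 3 genes were called whichever array was left out. A dimmer probe set of Ccna2 gave -0.86 and did not pass (adjusted p = 0.0831). Cks2, a small subunit that docks the kinase to its substrates, was at 5.14, 5.80 and 5.62 against 6.16, 6.95 and 7.08, a difference of -1.21 ± 0.22 (adjusted p = 0.0175).

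Ube2c, the ubiquitin carrier with which the anaphase-promoting complex destroys cyclins, showed the largest fall of the list. It was at 4.89, 5.52 and 5.25 in 0PP and 6.13, 6.49 and 6.82 in 7EX, a difference of -1.26 ± 0.20 (adjusted p = 0.00691). The highest 0PP pool was the second and stayed below every 7EX pool. Mki67, the proliferation antigen that coats mitotic chromosomes, was at 5.09, 5.75 and 5.49 against 6.19, 6.61 and 7.09 (-1.19 ± 0.21, adjusted p = 0.0135). Top2a, which untangles chromosomes before they part, was at 5.26, 5.87 and 5.07 against 6.14, 6.77 and 6.66 (-1.13 ± 0.20, adjusted p = 0.0147). Its 2 dimmer probe sets gave -0.13 each and did not pass. Across these genes the second 0PP array was often the highest of its group and the first 7EX array the lowest.

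Further members of the list act in cytokinesis or on the spindle. Cep55, which recruits the machinery that cuts the last bridge between daughter cells, fell by 0.98 on the log2 scale (SE 0.19), Anln, an actin-binding scaffold of the cleavage furrow, fell by 0.89 (SE 0.17) and Prc1, which bundles microtubules of the central spindle, fell by 0.74 (SE 0.10). Adjusted p-values were 0.0222 for Cep55, 0.0260 for Anln and 0.00154 for Prc1. Birc5 (survivin), of the chromosomal passenger complex, fell by 0.84 (SE 0.16, adjusted p = 0.0243), and Aspm, which acts at spindle poles, by 0.79 (SE 0.11, adjusted p = 0.00428). Pbk, a mitotic kinase, gave -0.96 and was called as well, while Prc1 and Aspm missed the fold limit only. The dimmer probe sets of Cep55 and Anln and the 4 of Aspm did not pass. Cdc20, the activator of the anaphase-promoting complex, gave -0.55 ± 0.13 and did not pass (adjusted p = 0.0606). Another of its probe sets, about as bright, gave -1.25 ± 0.22 (adjusted p = 0.0133), past both limits. The remaining probe set of Cdc20, somewhat dimmer, gave -0.15 and did not pass (adjusted p = 0.627).

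DNA replication genes, which act in S phase, differed less. Of 38 measured, 2 were lower and 0 higher, with a median of -0.18. Differences were negative in 36 of them. In 13 all 0PP arrays lay below all 7EX arrays, where 10.5% of all genes did so. Against NP/Sed 7 of the 38 passed upward in 7EX and 1 in 0PP, where 126 and 436 of 18193 genes did so. Rrm2, the regulated subunit of the enzyme that makes deoxynucleotides, fell by 0.86 (SE 0.19, adjusted p = 0.0434), and Tk1, thymidine kinase, fell by 0.49 (SE 0.10, adjusted p = 0.0387). Neither held with any 1 array left out, when the list's count was 0 each time. Of 7 inhibitors of cyclin-dependent kinases 0 passed.

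**Figure D2:**
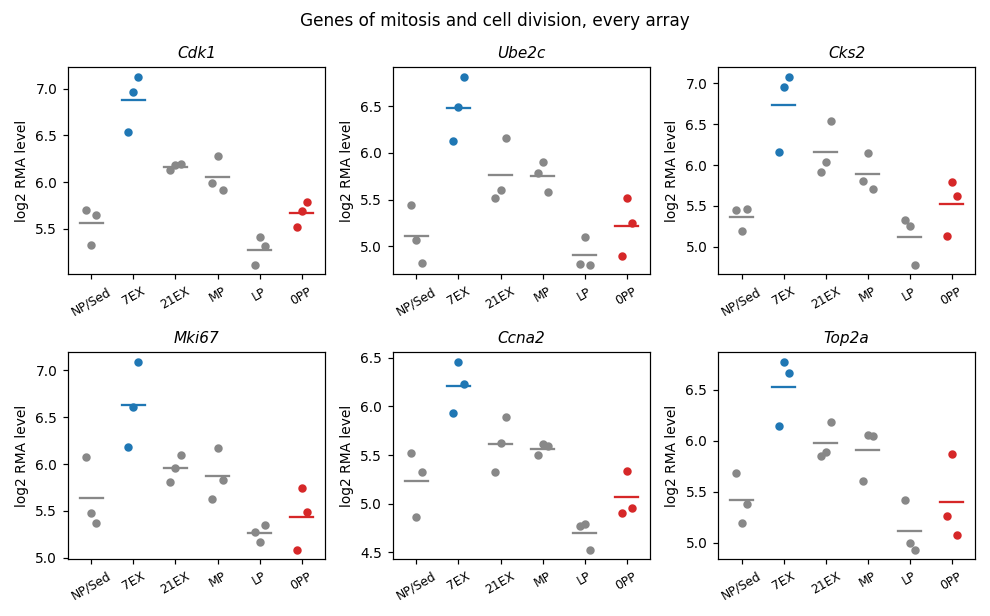
Log2 RMA level (vertical axes) of 6 mitosis genes in every array of the 6 groups; points are arrays and bars are group means, with 7EX in blue, 0PP in red and the other groups in grey. The 7EX points lie above the 0PP points in each panel, and the 0PP means lie near those of NP/Sed (differences of 0.11 for Cdk1 and -0.20 for Mki67).

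In the mitosis genes 0PP was the group near the sedentary level. The list's median difference from NP/Sed was -0.05 in 0PP and 0.45 in 7EX, 0 members passed in 0PP and 24 in 7EX. Over all 18193 genes 436 passed upward in 0PP and 126 in 7EX, and 55 and 19 downward. Cdk1 differed from NP/Sed by 0.11 in 0PP (adjusted p = 0.735) and by 1.32 in 7EX (adjusted p = 0.00027). Ube2c gave 0.11 and 1.37, and Cks2 0.15 and 1.36. Of the 15 called falls, the NP/Sed mean was nearer to 0PP in 14, 10 passed against NP/Sed in 7EX and 0 in 0PP. These 15 were picked for their gap between 0PP and 7EX on these arrays. 21EX Cdk1 averaged 6.16 ± 0.03 and LP 5.28 ± 0.15, between and below the contrasted groups.

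With 1 array left out the count of lower mitosis genes ranged from 8 to 22. It was 8 without the second or the third 7EX array, and 9 without the first 0PP array. The median stayed between -0.51 and -0.35 throughout. With the beta-actin covariate 0 members passed, while the median was again -0.42 and Cdk1 read -0.79 (unadjusted p = 0.000619, limma). Few markers of other cells passed: of 10 fibroblast markers 0 passed (median -0.06), of 17 macrophage markers 1 was higher (F13a1, 0.38 ± 0.08, adjusted p = 0.0449), and of 9 endothelial markers 1 was lower. The mean of the endothelial markers was 8.72 to 8.80 per array in 0PP and 8.83 to 8.97 in 7EX, so the groups were apart there too. The marker means were also apart, in the other direction, for erythroid cells (5.52 to 5.62 in 0PP, 5.31 to 5.37 in 7EX), for mesothelium and epicardium (4.32 to 4.38 against 4.19 to 4.26) and, barely, for macrophages (7.4338 to 7.5464 against 7.3205 to 7.4336), and 0PP was lower for the cardiomyocyte markers given at the outset. Their part in the mitosis result was not tested. The endothelial gene that fell was Cldn5, which seals junctions between endothelial cells, at 7.80, 7.79 and 7.95 against 8.64, 8.48 and 8.55 (-0.71 ± 0.11, adjusted p = 0.00788).

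Fabp7 and Mfap4 were called falls outside these lists. Fabp7, a fatty acid binding protein best known from brain, was at 4.67, 4.52 and 4.78 in 0PP and 5.51, 6.08 and 5.72 in 7EX (-1.12 ± 0.17, adjusted p = 0.0046). Mfap4, a protein of elastic fibres, was at 6.68, 6.49 and 6.55 against 7.47, 7.45 and 7.99 (-1.06 ± 0.16, adjusted p = 0.00516). Both were called whichever array was left out, with no overlap between groups. Sox4, a transcription factor of progenitor and endothelial cells, was at 9.53, 9.85 and 9.58 against 10.40, 10.41 and 10.42 (-0.76 ± 0.16, adjusted p = 0.0403), and Stmn1, which destabilises microtubules, gave -0.46 ± 0.09 (adjusted p = 0.0261). In the matrix list, of 35 collagen and matrix genes 1 was lower, the proteoglycan Bgn (-0.56 ± 0.11, adjusted p = 0.0243), and 0 were higher. Sox4, Stmn1 and Bgn missed the limit of a 75% change at these probe sets and were not called. Another probe set of Sox4, dimmer, gave -0.83 (adjusted p = 0.0342), past both limits. The rest of Sox4's probe sets gave -0.72 to -0.21, and only some of them passed.

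**Figure D3:**
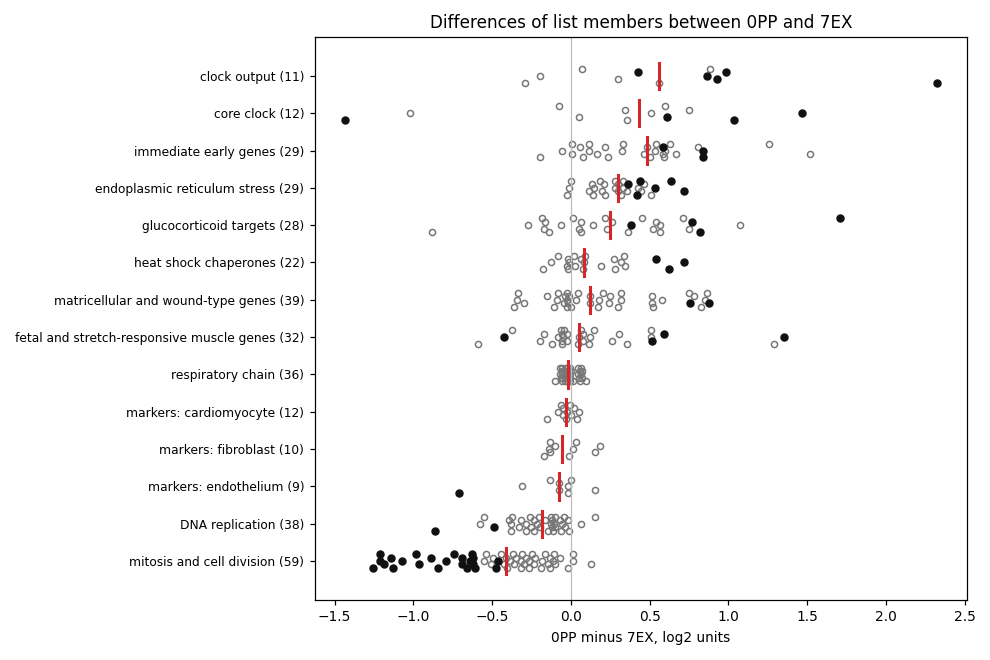
Differences of 0PP minus 7EX (log2 units, horizontal axis) for the members of 14 gene lists, with the number measured in brackets; filled points passed an adjusted p of 0.05, open points did not, and red bars are list medians. The medians of the clock, early response and endoplasmic reticulum lists lie to the right of 0, with Arntl far to the left at -1.44, that of the mitosis genes lies to the left, and cardiomyocyte and respiratory chain genes within about 0.2 of 0.

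Glucocorticoid targets, genes that the receptor for the stress hormone switches on, were higher in 4 of 28 cases in 0PP and lower in 0, with a median of 0.25. The study names 15 of the 28, and all 4 that passed are among these. All 0PP arrays lay above all 7EX arrays in 14 of the 28 and below in 2, against 11.2% and 10.5% of all genes. Differences were negative in 7, the lowest in Ddit4 (-0.88), which did not pass. Zbtb16, a zinc finger repressor that glucocorticoid and progesterone induce, was at 9.75, 7.92 and 9.23 in 0PP and 7.22, 7.05 and 7.50 in 7EX. The groups did not overlap, but the second 0PP pool lay close to 7EX. Zbtb16 was higher by 1.71 ± 0.30 (3.27-fold, adjusted p = 0.0126). Outside the list, the same pool was low in Fam107a, a stress-induced actin-binding gene, which was at 7.29, 5.94 and 7.08 against 5.61, 5.54 and 5.81 (1.12 ± 0.24, adjusted p = 0.0434). It was also lowest for the kinase gene Map3k6, at 6.78, 6.16 and 6.77 against 5.77, 5.65 and 5.84 (0.82 ± 0.17, adjusted p = 0.0316). The other probe sets of Fam107a gave 0.52 and 0.14 and did not pass.

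Klf9, a transcription factor induced by the same hormones, was higher by 0.38 ± 0.08 (adjusted p = 0.0402), and the lymphatic marker Lyve1 by 0.77 ± 0.14 (adjusted p = 0.0161). Against NP/Sed, Klf9 gave -0.07 in 0PP (adjusted p = 0.715) and -0.45 in 7EX (0.0202). Lyve1 gave 1.02 in 0PP (0.00408) and 0.25 in 7EX (0.458). The list's median difference from NP/Sed was 0.11 in 0PP and -0.09 in 7EX. Upward in 0PP 2 of the 28 passed, against 436 of 18193 genes, and downward in 7EX 1 passed, against 19. Fkbp5, a chaperone that feeds back on the receptor, was at 8.03, 7.14 and 7.84 against 6.83, 7.09 and 6.96, with the second 0PP pool again next to 7EX. Fkbp5's difference of 0.71 ± 0.22 did not pass (adjusted p = 0.188). The list's count between 0PP and 7EX was 0 without the first 0PP array or the second 7EX array.

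Genes of the endoplasmic reticulum (ER) stress response, which restores protein folding in the secretory path, were higher in 6 of 29 cases. In 0 cases they were lower, and the median was 0.30. In 23 of them all 0PP arrays lay above all 7EX arrays, where 11.2% of all genes did so. Dnajb9, an ER cochaperone, was at 10.24, 10.19 and 10.19 in 0PP and 9.78, 9.76 and 9.77 in 7EX, with little spread within either group (0.44 ± 0.07, adjusted p = 0.00931). Herpud1, which helps to clear misfolded proteins from the ER, was at 10.62, 10.22 and 10.24 against 9.63, 9.58 and 9.71 (0.72 ± 0.13, adjusted p = 0.0134). Ddit3 (CHOP), the late transcription factor of the response, was at 8.58, 8.30 and 8.12 against 7.76, 7.55 and 7.79 (0.63 ± 0.10, adjusted p = 0.00791). No groups overlapped among the 3. Manf, a secreted ER protein, rose by 0.53 ± 0.11 (adjusted p = 0.0408), Hyou1, an ER chaperone, by 0.42 ± 0.08 (0.0225) and Dnajb11 by 0.36 ± 0.08 (0.0358). The other probe sets of Hyou1 gave 0.06 and 0.12 and did not pass. Hspa5 (BiP), the main ER chaperone, gave 0.45 ± 0.10 and just missed (adjusted p = 0.0502). None of the 6 reached the limit of a 75% change. The count was 0 without the second 7EX array and 2 in a fit of the 6 arrays alone. Against NP/Sed the list's median was 0.25 in 0PP and -0.03 in 7EX. Upward in 0PP 6 of the 29 members passed, against 436 of 18193 genes, and downward in 7EX 1 passed, against 19. Ddit3 (0.46, adjusted p = 0.0299) and Manf (0.59, 0.0168) passed upward in 0PP. The member that passed downward in 7EX was Herpud1 (-0.58, adjusted p = 0.0408), which gave 0.14 in 0PP (0.625). Dnajb9, Hyou1 and Dnajb11 passed in neither.

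Cytosolic heat shock chaperones were higher in 3 of 22 cases with a median of 0.08, and in 1 or 2 with 1 array left out. Hspa1a was at 5.34, 5.13 and 5.40 in 0PP and 4.57, 4.68 and 4.47 in 7EX (0.72 ± 0.11, adjusted p = 0.00428). Hspa1b, its near-identical copy, was at 7.52, 7.26 and 7.12 against 6.61, 6.60 and 6.83 (0.62 ± 0.14, adjusted p = 0.0495). Probe sets of the pair may detect both transcripts, so they are not independent. Dnajb4, a cochaperone, rose by 0.54 ± 0.09 (adjusted p = 0.00868).

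Immediate early genes, which answer stimuli within minutes, had a median of 0.48 over 29 members, with 3 higher and 0 lower. In 18 of them the groups were separate upward, where 11.2% of all genes were. Ier5 was at 8.60, 8.22 and 8.04 in 0PP and 7.34, 7.38 and 7.62 in 7EX (0.84 ± 0.14, adjusted p = 0.00868), Ier3 at 9.21, 9.60 and 9.0 against 8.33, 8.36 and 8.60 (0.84 ± 0.18, adjusted p = 0.0376). Neither overlapped. Egr2 rose by 0.58 ± 0.12 (adjusted p = 0.0375) at a level below 4. The largest differences of the list did not pass: Egr1 was at 9.58, 8.35 and 8.14 against 6.90, 7.17 and 7.44 (1.52 ± 0.40, adjusted p = 0.103), and Fos gave 1.26 ± 0.42 (adjusted p = 0.223). In both the first 0PP pool stood above the others. Without that array the list's count was 0, as it was without the second 7EX array.

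**Figure D4:**
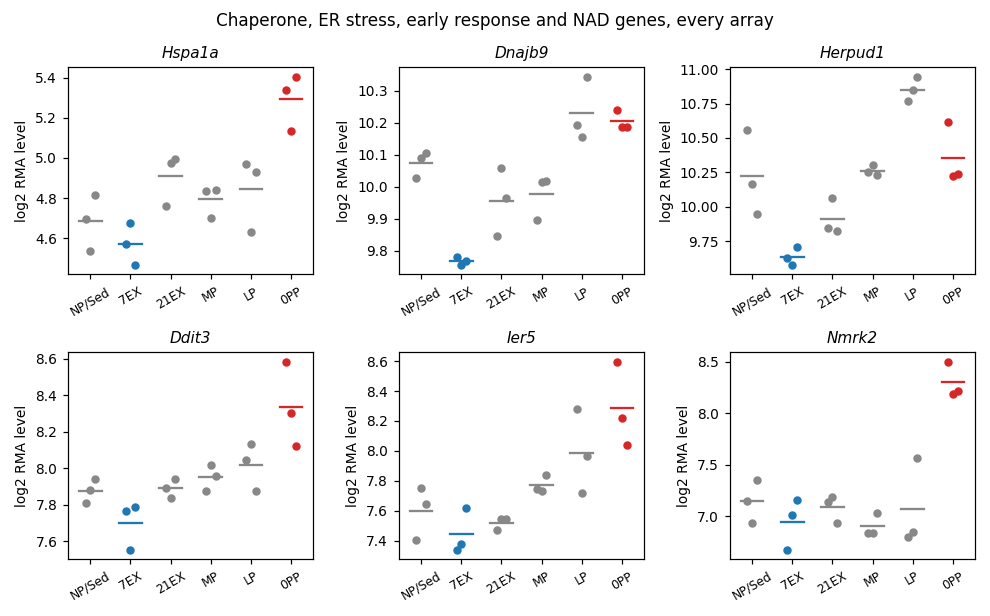
Log2 RMA level (vertical axes) of 6 chaperone, ER stress, early response and NAD genes in every array of the 6 groups; points are arrays and bars are group means, with 7EX in blue, 0PP in red and the other groups in grey. All 0PP points lie above all 7EX points, and for Nmrk2 above the points of every other group.

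Nmrk2, a kinase of nicotinamide riboside that muscle uses to make NAD and that rises in stressed hearts, was at 8.50, 8.19 and 8.22 in 0PP and 6.68, 7.01 and 7.16 in 7EX. The groups lay about 1 log2 unit apart at their closest. It was 2.55-fold higher (1.35 ± 0.17, adjusted p = 0.00129), was called whichever array was left out, and read 1.45 with the beta-actin covariate. Against NP/Sed it differed by 1.16 in 0PP (adjusted p = 0.00435) and by -0.20 in 7EX (adjusted p = 0.686). Among 14 genes of NAD synthesis it alone passed, and the list's median was -0.03.

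Rhobtb1, which acts with ubiquitin ligases, was at 9.44, 9.12 and 9.19 against 7.96, 7.97 and 8.24, the smallest p of all genes. It was 2.28-fold higher (1.19 ± 0.12, adjusted p = 0.000213), and its other probe set gave 1.16. Here 7EX was the group that passed against NP/Sed (-0.75, adjusted p = 0.00706). Shld1, a DNA repair subunit, was at 8.53, 8.86 and 8.80 against 7.83, 7.74 and 7.80 (0.94 ± 0.10, adjusted p = 0.000214), and was likewise lower than NP/Sed in 7EX (-0.64, adjusted p = 0.00518). Groups were far apart in both genes. Coq10b, a coenzyme Q binding protein of mitochondria, rose by 0.84 ± 0.11 (adjusted p = 0.00207), Chd6, a chromatin remodeller, by 0.86 ± 0.13 (0.00428), Adamts1, a protease of versican, by 0.88 ± 0.17 (0.0264) and Ammecr1 by 0.94 ± 0.17 (0.0178). Timp3, an inhibitor of matrix proteases, rose by 0.75 ± 0.15 (adjusted p = 0.0259), under the limit of a 75% change, while its other probe sets gave 0.87 to 1.03 and were all past both limits.

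Among 32 fetal and stretch-responsive muscle genes, which large hearts often switch back on, 3 were higher (Nmrk2, Fhl1 and Synpo2l), 1 was lower (Tnnt1) and the median was 0.05. With 1 array left out 1 to 3 were higher and 0 to 1 lower. Fhl1, a LIM protein that senses stretch, rose by 0.52 ± 0.11 (adjusted p = 0.0337), Synpo2l, a Z-disc protein, by 0.59 ± 0.12 (0.0262), and the slow skeletal troponin gene Tnnt1 fell by 0.42 (SE 0.09, adjusted p = 0.0387). Nppb, the natriuretic peptide released by stretched muscle, was at 12.94, 12.98 and 13.05 in 0PP and 12.11, 12.66 and 12.69 in 7EX. It was higher in every 0PP array, but the difference of 0.51 ± 0.19 did not pass (adjusted p = 0.281). Acta1, skeletal actin, was at 12.25, 11.71 and 11.84 against 12.32, 12.47 and 12.78, lower in every 0PP array (-0.59 ± 0.22, adjusted p = 0.282). The myosin light chains Myl1 (-0.17 ± 0.12, adjusted p = 0.600) and Myl4 (0.36 ± 0.50, adjusted p = 0.837) overlapped between groups.

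Nppb, Acta1, Myl1 and Myl4 are among 17 genes that the study followed by PCR. Of the 17, 1 passed here (Cks2), 8 had all 0PP arrays above all 7EX arrays, 3 below and 6 overlapped. Over all genes 11.2% lay above and 10.5% below in this way. Mt2, a metallothionein, gave 1.07 ± 0.36 (adjusted p = 0.225), Car3, a carbonic anhydrase rich in fat and slow muscle, 1.0 ± 0.45 (adjusted p = 0.379), and Adipoq, the fat cell hormone adiponectin, 0.86 ± 0.43 (adjusted p = 0.439). Timp1, a protease inhibitor of wounds, gave 0.75 ± 0.33 (adjusted p = 0.366) and Stat3 0.37 ± 0.17 (adjusted p = 0.398). With the beta-actin covariate Car3 read -0.03, Adipoq 0.18 and Timp1 0.12. Fbxo32, the atrophy ubiquitin ligase atrogin-1, gave 0.01 ± 0.11, Mmp3 0.20 ± 0.28, Birc6 0.13 ± 0.10, Xiap 0.17 ± 0.09 and Ralgapa1 0.16 ± 0.09, none of which passed.

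Few genes of energy metabolism passed. Of 36 respiratory chain genes 0 passed and all differences lay between -0.10 and 0.10, and of 33 genes of glucose and glycogen metabolism 0 passed. Of 39 genes of fatty acid and ketone metabolism 1 was higher, Decr1, a reductase needed to oxidise unsaturated fatty acids (0.39 ± 0.07, adjusted p = 0.0168), with a median of 0.09. All 0PP arrays lay above all 7EX arrays in 15 of these 39 and below in 1. In the glucose and glycogen list they lay above in 9 and below in 3. Over all genes 11.2% lay above and 10.5% below. No member passed among 24 chemokines, 33 NF-kappa-B and acute phase genes, 30 interferon-stimulated genes, 39 proteasome genes, 25 ion channel and pump genes or 21 hormone receptors of pregnancy.

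**Figure D5:**
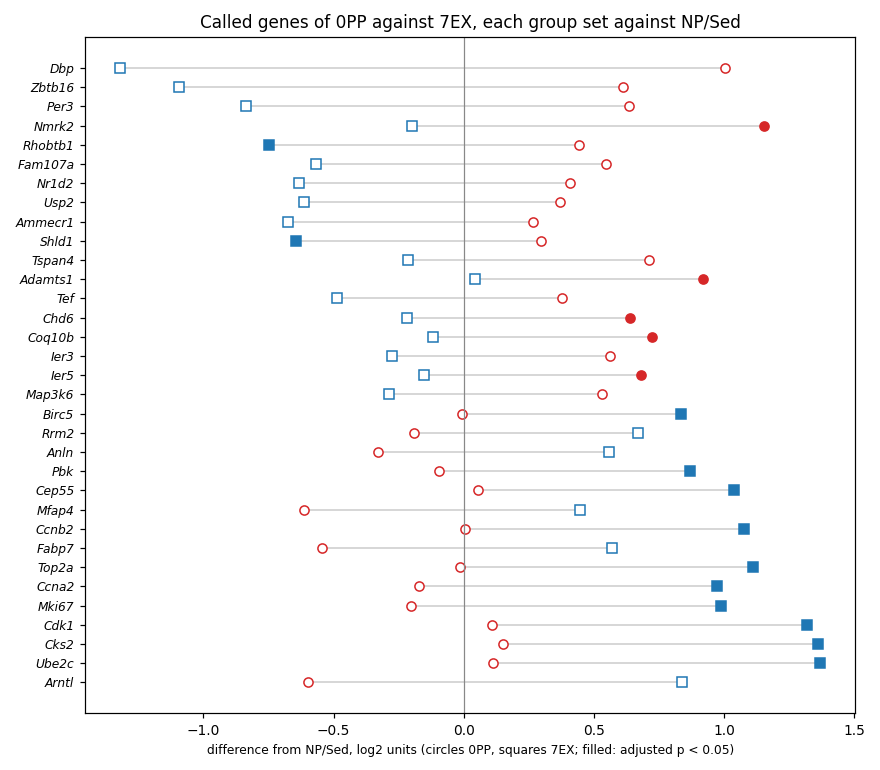
Difference from NP/Sed (log2 units, horizontal axis) of 0PP (red circles) and 7EX (blue squares) for the 33 genes called between 0PP and 7EX; filled symbols passed an adjusted p of 0.05 against NP/Sed. Mitosis genes have 0PP near 0 and 7EX above it, while most rises lie on both sides of 0.

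The 18 called rises and 15 called falls were picked for their gap between 0PP and 7EX on these arrays. An NP/Sed mean between the 2 groups is therefore favoured in advance. The same counts were not made over all genes, so those given here describe these genes only. NP/Sed lay between 0PP and 7EX in 17 of the 18 rises and 10 of the 15 falls. Among the rises 5 passed against NP/Sed in 0PP, 2 in 7EX and 11 in neither. In all 18 the 21EX mean was nearer to 7EX, and in 17 the LP mean was nearer to 0PP. Of the 15 falls, 8 had the 21EX mean nearer to 7EX and 15 the LP mean nearer to 0PP.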

How the data were processed

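RNA of left ventricle was hybridised to 1-colour oligonucleotide arrays, 1 pool of 2 to 3 hearts each. The log2 expression values were made by RMA (background correction, quantile normalization and probe summary) and deposited by the authors for 45101 probe sets. The 64 control probe sets were left out, 45037 were tested, and 34945 of these had 1 gene in the platform annotation. Each of 18193 genes was represented by its probe set of highest mean over 18 arrays. limma 3.58.1 (R 4.3.3) was fitted to all 6 groups (12 residual degrees of freedom), with Benjamini-Hochberg adjustment over 45037 probe sets. A gene was called at an adjusted p under 0.05 and a change of at least 75%, and list members were counted at an adjusted p under 0.05. The number of arrays limits the precision. Named genes were the 15 largest called rises and falls with separate groups, up to 5 members of each list with the smallest adjusted p, and 17 genes measured by PCR in the study. Lists with fewer than 2 passing members were to have their 2 brightest genes named. Some of these lists are given by counts instead. Others are not described, among them those of Myc and ribosome biogenesis, apoptosis regulators, and ubiquitin ligases. The members and lists were chosen with earlier results of these data known. Of 1110 list entries 1036 had a probe set. The limma fit, the replicate block and Cyber-T were tested on simulated data. No column was left unused. Same-numbered arrays of 0PP and 7EX did not deviate together (correlations of -0.01, 0.08 and -0.17), so they were not paired.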

Additional observations from a re-analysis of the deposited data

How the results depend on the processing

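The counts of called genes were 18 higher and 15 lower in 0PP. A fit of the 6 arrays alone gave 17 higher and 8 lower, the Cyber-T test named in the study's methods gave 28 higher and 17 lower, and the beta-actin covariate gave 0 higher and 0 lower (1370 genes at an unadjusted p under 0.05 in limma, and all 137 genes at an adjusted p under 0.05 kept their direction). With no fold limit the counts were 70 and 67, and these became 47 and 26 with the 6 arrays alone, 286 and 121 in Cyber-T, 20 and 16 without the first 0PP array, 17 and 20 without the second 7EX array, and 23 and 13 without the third. With the replicate number as a block (replicate block) the counts were 19 and 15 with the fold limit and 62 and 68 without it. The pairing thus changed none of these counts by over 1.5 times. With the fold limit, the intensity trend, median centring, a minimum mean level of 5, the mean of a gene's probe sets and any probe set of the gene gave 15 to 23 higher and 10 to 17 lower. With the mean of probe sets Nr1d2, Per3, Tef, Ier5, Chd6, Ammecr1 and Fam107a (higher) were no longer called. The same held for Anln, Cep55, Rrm2 and Top2a (lower). With 1 array left out the count of called genes ranged from 6 to 16 higher and from 6 to 17 lower. It was 6 and 6 without the first 0PP array, 6 and 16 without the first 7EX array, 9 and 8 without the second 7EX array, and 14 and 6 without the third 7EX array. Nmrk2, Rhobtb1, Shld1 and Usp2 (higher) and Ccna2, Ccnb2, Cdk1, Fabp7, Mfap4 and Ube2c (lower) were called in all 6 such fits, and Dbp, Tspan4 and Rrm2 in 0. The mitosis count of 23 lower became 10 with the 6 arrays alone and 12 with the minimum level of 5, and the ER stress count of 6 became 2 and, in Cyber-T, 15. Cyber-T also gave 17 immediate early genes and 11 glucocorticoid targets higher. Among the genes named, apart from Ddit4, which was not followed here, directions reversed only where the gene had not passed. With the covariate these were Birc6 (-0.0535), Car3 (-0.0295), Fbxo32 (-0.268) and Mmp3 (-0.196). Fbxo32 further reversed with any probe set (-0.0845) and the mean of probe sets (-0.0137). Fbxo32 ranged from -0.0664 to 0.112 with 1 array left out. The cause was not tested in any of these. The covariate fit was less precise, as its signal separated the 2 groups. Dim probe sets limit what can be seen: 36 of the 59 mitosis genes averaged under 5.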
